A study of Schizosaccharomyces pombe with 2 samples.

Results

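The sap1 gene of fission yeast and the 10 kb on each side of it were examined for copy number in revertants of a sap1-1 mutant. Probes were taken by position alone: those that were not controls, lay on chromosome III and started between 551576 and 573766 numbered 74 of the 41551 probes of the array, 1 about every 300 bp. Of these, 8 started inside sap1 (SPCC1672.02C, 561576 to 563766), 33 in the left flank and 33 in the right flank, and all 74 were measured on both arrays. The study compared genomic DNA by comparative genomic hybridization on 2 tiling arrays of Schizosaccharomyces pombe, a haploid yeast. On each array, DNA of a revertant (strain background 972h, genotype sap1-1, labelled with Cy5) was set against DNA of the wild type (972h, labelled with Cy3). Per the labels, both DNAs were cut with the restriction enzymes AluI and RsaI before labelling. The revertants form 1 group of 2 replicates. Whether the revertants arose separately, whether each was 1 clone and whether both arrays received the same wild-type DNA is not stated in the labels. The p-values therefore rest only on the spread between these 2 arrays, which limma pools in part over all features tested. How much of this spread is technical is not known. The ratios of the 2 revertants differed left of the region, as given below, so that the arrays did not repeat 1 DNA. The sap1-1 strain before reversion was not analysed here. Log2 ratios are of revertant over wild type and centred on each array's median, so that positive values are ratios above that median. By this centring 50% of all probes lie above 0 on each array, and a positive value alone does not show extra DNA.

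Sap1 is an essential DNA-binding protein that was first known for its part in mating-type switching. It binds the replication fork barrier of the ribosomal DNA and the long terminal repeats (LTRs) of retrotransposons, and it is needed for stable replication forks. A revertant is a descendant of a mutant in which the mutant phenotype is gone. In a haploid genome a second copy of a locus gives a log2 ratio of 1 in this assay. The arrays count DNA and do not read its sequence, so that the allele of any extra copy of sap1 was not measured.

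The RefSeq annotation of the ASM294v3 assembly places sap1 on the minus strand as 1 exon of 2191 bp, with a coding sequence of 765 bp at 562353 to 563117. The opening of this coding sequence is printed because the labelled DNA of sap1 was fragmented at the enzyme sites, which are in capitals (AGCT for AluI, GTAC for RsaI, each the same on both strands and never overlapping here). The only annotated repeat of the region, an LTR of 139 bp in the left flank, is printed in the same way, since LTRs are known binding places of Sap1. Both are written 5′ to 3′ on the minus strand of ASM294v3 and are not probe sequences.
sap1 coding sequence, first 300 bases, chrIII:562818-563117: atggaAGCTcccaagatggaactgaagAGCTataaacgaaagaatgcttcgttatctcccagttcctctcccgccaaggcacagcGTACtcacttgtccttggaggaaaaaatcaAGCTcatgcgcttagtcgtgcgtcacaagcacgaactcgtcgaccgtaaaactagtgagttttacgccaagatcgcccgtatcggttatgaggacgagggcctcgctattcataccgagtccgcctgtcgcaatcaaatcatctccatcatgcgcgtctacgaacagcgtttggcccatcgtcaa
LTR of the left flank, chrIII:552825-552963: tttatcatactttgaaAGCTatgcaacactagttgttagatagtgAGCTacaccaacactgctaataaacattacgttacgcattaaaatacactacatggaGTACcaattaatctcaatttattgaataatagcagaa
The stretch of sap1 held 4 enzyme sites, and 11.5% of the 8176 stretches of 300 bases of chromosome III held 4 or more. The LTR held 3 sites, and 5.26% of the stretches of its length on chromosome III held 3 or more. The sap1 gene as a whole had 9.13 sites per kb and a GC content of 42.0%, against 6.50 per kb and 37.3% in the left flank, 4.90 per kb and 37.4% in the right flank, and 6.20 per kb and 36.2% over chromosome III. The share of these differences in the ratios of sap1 was not tested.

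Both revertants carried more DNA of sap1 and its flanks than the wild type. The median log2 ratio over the 74 probes was 0.93 in replicate 1 and 1.00 in replicate 2, or 0.97 ± 0.05 (SD, n = 2), a 1.95-fold ratio. The genome was divided into 566 tiles of the same length as the region (22191 bp, at least 5 probes), placed on chromosome III outwards from it, and their medians were fitted with limma. The tile of sap1 was higher with a Benjamini-Hochberg adjusted p of 5.6e-16 (limma), a value that rests on a spread pooled over all tiles. By this test 20.5% of all tiles were higher and 51.2% differed in either direction, so that the call alone says little. By size, 2.47% of the tiles (14 of 566) had a median of at least 0.5 on both arrays, and 4 tiles, the tile of sap1 among them, had a mean at or above 0.97. With 2 arrays, the smallest p of an exact sign permutation is 0.5.

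Single probes scattered widely around this median, and the scatter was the same on both arrays. The ratios ran from -0.85 to 2.23 in replicate 1, with the middle 50% of them between 0.53 and 1.35, and from -0.88 to 2.07 in replicate 2. The SD over probes was 0.67 and 0.64, against 0.66 and 0.65 over the probes of chromosomes I and II, so that the region was shifted as a whole with no wider scatter. Of the 74 probes, 55 were at 0.5 or more on both arrays, against 14.5% of all probes, and 32 were at 1 or more on both, against 1.93% of all. Only 7 of the 74 were below 0 on both arrays, against 46.2% of all probes. Limma called 63 of the 74 higher and 6 lower (adjusted p under 0.05), but it called 80.7% of all 41538 probes in either direction and 40% higher, so that these calls show probe effects that both arrays share as well as copy number. The Pearson correlation of the arrays over the 74 probes was 0.98, and it was 0.97 over all probes. This is a description over probes that share their array design and sequence.

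**Figure D1:**
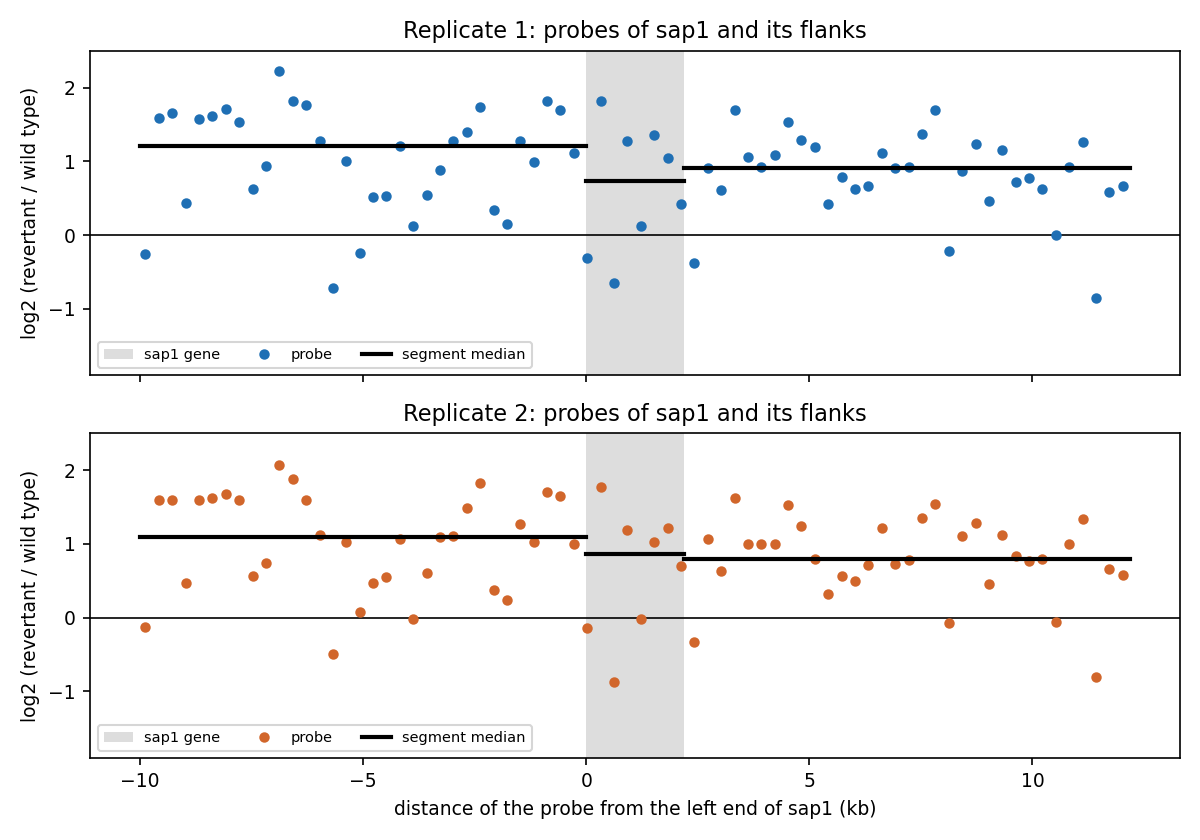
Log2 ratio of revertant over wild type for each of the 74 probes (points) against its distance in kb from the left end of sap1, for replicate 1 (top) and replicate 2 (bottom). The grey band is sap1 and the black lines are the medians of left flank, gene and right flank; all 6 medians lie between 0.74 and 1.20, and the same probes are low on both arrays.

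The ratios of the revertants lay close together over the region. The ratio in replicate 2 minus that in replicate 1 had a median of -0.0083 and an SD of 0.13 over the 74 probes, with a range from -0.40 to 0.32. Replicate 2 was the higher of the arrays in 36 of the 74 probes. The arrays were less than 0.2 apart in 65 of the 74. The difference between the revertants thus varied much less from probe to probe than the ratio to the wild type, whose SD over probes was 0.67 and 0.64.

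**Figure D2:**
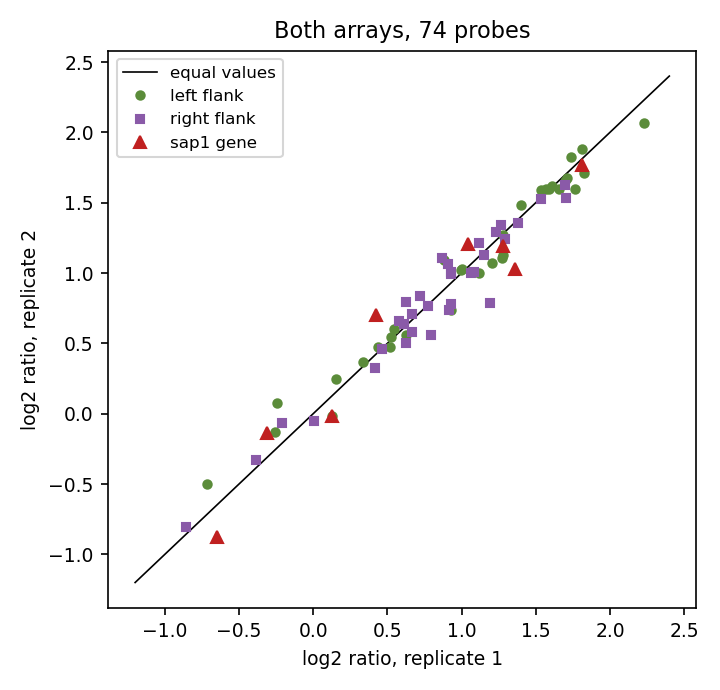
Log2 ratio of each of the 74 probes in replicate 2 (vertical) against replicate 1 (horizontal), with the line of equal values. Probes of sap1 (triangles), the left flank (circles) and the right flank (squares) follow the line; 65 of the 74 lie less than 0.2 from it in the vertical direction.

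The 8 probes of sap1 had higher ratios at most positions and were low at 3 of them. In order of position they read -0.31 and -0.14 at 561600 (replicate 1 and replicate 2), 1.81 and 1.77 at 561900, -0.65 and -0.88 at 562200, 1.28 and 1.19 at 562500, 0.13 and -0.02 at 562800, 1.36 and 1.03 at 563100, 1.05 and 1.21 at 563400, and 0.43 and 0.70 at 563700. The highest and the lowest of the 8 were neighbours 300 bp apart, and 2 of the 8 were below 0 on both arrays. Of the remaining 66 probes, 5 were below 0 on both. By their listed positions, the probes at 562500, 562800 and 563100 started within the coding sequence, with means of 0.92 and 0.73 over these 3. The other 5 started in the untranslated parts of the gene, with means of 0.47 and 0.53. This split is uncertain, because the build of the positions is not given and the probe at 563100 lies close to the coding start at 563117. A small shift in position would change which probes count as coding. The probe at 562200, the lowest, was a bright one, with raw signals of 21227 and 21920 in the wild-type channel. The probe at 563700 had raw signals of 65215 and 64332 there, near the top of the scanner's range, and was not marked as saturated.

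Summed over its probes, sap1 was higher in both revertants. Its median was 0.74 in replicate 1 and 0.86 in replicate 2 (0.80 ± 0.09, SD, n = 2, a 1.74-fold ratio), and its mean was 0.64 and 0.61 (0.62 ± 0.02, SD, n = 2, a 1.54-fold ratio). In the fit over the 592 genes with at least 3 own probes on the first 1 Mb of chromosome III, sap1 was higher with a standard error of 0.03 and an adjusted p of 0.0060 from limma. By that test 32.1% of the genes were higher and 61.5% differed in either direction. At a mean of at least 0.5 on both arrays there were 16.4% of the genes, and sap1 was one of them. With 8 probes, the standard error of the mean over probes was 0.31 on each array.

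The mean ratio of sap1 was lower than that of its flanks, by less than the error over its probes. Both flanks together had a mean of 0.92 and 0.91, so that sap1 minus its flanks was -0.28 in replicate 1 and -0.31 in replicate 2 (mean -0.30, SD 0.02, n = 2). The standard error of this difference over probes was 0.32 on each array. Limma gave an adjusted p of 0.00068, but 40.1% of the 591 genes tested in the same way were lower than their own flanks and 73.3% differed from them in either direction. By size, 33.3% of them differed from their flanks at least as much. With medians the difference was -0.19 and -0.14. After normexp background correction it was -0.12 with an adjusted p of 0.11 from limma, so that the call was lost. The 8 probes were dimmer than those of the flanks in the wild-type channel, with median raw signals of 7258 in sap1 and 9644 in the flanks in replicate 1. In the revertant channel these were 2654 and 5576, but a lower signal there is part of the lower ratio itself. When all probes were split into 3 equal classes by their wild-type signal, 4 of the 8 belonged to the dimmest class, and within it the median of sap1 differed from that of the 19 flank probes by -0.04 and -0.06. In the brightest class the median of the 3 probes of sap1 differed from that of the 23 flank probes by -0.80 and -0.41, and the middle class held 1 probe of sap1. The part of brightness in the lower mean of sap1 was not tested.

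The left flank had higher ratios than the right flank on both arrays. The median of its 33 probes was 1.20 in replicate 1 and 1.09 in replicate 2 (1.15 ± 0.08, SD, n = 2, a 2.22-fold ratio), and that of the right flank was 0.91 and 0.80 (0.85 ± 0.08, SD, n = 2, a 1.81-fold ratio). The difference of the medians was 0.29 in replicate 1 and 0.30 in replicate 2, with an adjusted p of 0.0059 from limma over the 591 genes whose flanks were compared in this way. Among those genes 20.3% had a left flank called higher, 33.7% were called in either direction, and 12.2% had flanks that differed at least as much in size. The means differed by 0.23 on each array, with a standard error over probes of 0.16 and 0.15. The difference of the means was thus 1.44 and 1.58 times its standard error over probes, and that of the medians was larger against this error. The error treats probes as replicates, but their scatter was shared by both arrays. It therefore cannot decide whether the flanks differed in copy number, and no such difference is shown.

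Parts of the flanks stood apart from the rest. In bins of 2.5 kb counted outwards from the gene, the medians (mean of both arrays) were 1.17, 0.78, 1.02 and 1.59 in the left flank and 1.00, 0.79, 1.02 and 0.68 in the right flank, over 8 or 9 probes each. The highest bin was the outermost of the left flank, with 1.58 in replicate 1 and 1.60 in replicate 2. It holds rps1201 and the LTR printed above, and the 1 probe that started in the LTR, at 552900, had 1.57 and 1.60. The highest probe of the left flank was at 554700, with 2.23 and 2.07, and its lowest at 555900, with -0.71 and -0.50. The right flank ran from 1.70 and 1.63 at 564900 down to -0.85 and -0.81 at 573000. These extremes were alike on both arrays, and the bins hold too few probes to place a step in copy number inside the region.

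Ratios on these arrays rise with the brightness of a probe, and the region was high at every brightness. The 3 classes by signal in the wild-type channel were taken in turn. In the dimmest class, 23 probes of the region had a median of 0.63 and 0.56, against -0.29 and -0.31 for the probes of chromosomes I and II. In the middle class, 25 probes had 1.00 and 1.03, against -0.0018 and -0.03, and in the brightest class 26 probes had 1.22 and 1.09, against 0.14 and 0.19. The region therefore stood above chromosomes I and II by 0.89 ± 0.03, 1.03 ± 0.04 and 0.99 ± 0.13 in the 3 classes (SD, n = 2). The Pearson correlation of the log2 ratio with the log2 wild-type signal was 0.26 and 0.27 over the 74 probes and 0.28 and 0.30 over all probes, a description over probes of the same arrays. Probes with an R in their names and those without, 37 of each, had medians of 0.96 and 1.07 (mean of both arrays).

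**Figure D3:**
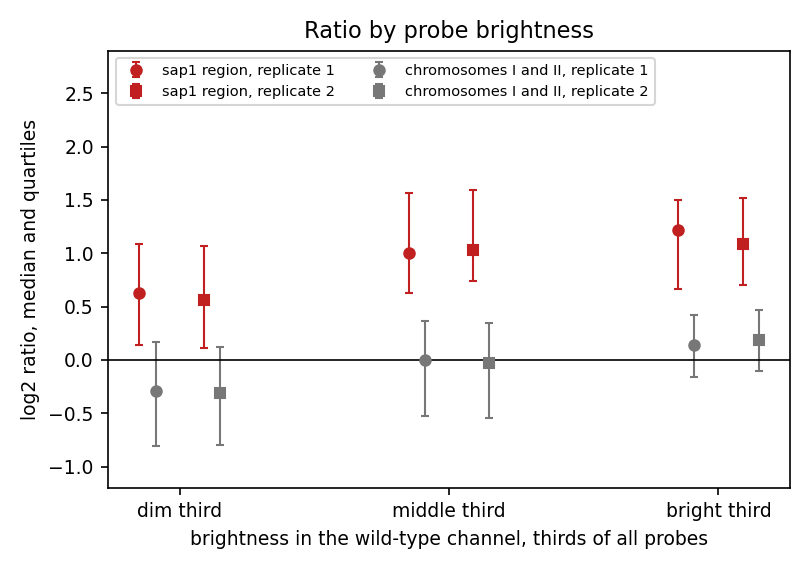
Median log2 ratio (points) with the quartiles over probes (bars) for 3 equal classes of probes by brightness in the wild-type channel, for the sap1 region (red) and chromosomes I and II (grey), with replicate 1 as circles and replicate 2 as squares. The region lies above chromosomes I and II in each class, by a mean of 0.89, 1.03 and 0.99.

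The tested genes around sap1 all had higher ratios in the revertants. The annotation lists 21 genes that overlap the region, 10 of them protein-coding and 11 long noncoding RNAs. Of these, 17 had at least 3 own probes and were tested, and all 17 were higher by limma (largest adjusted p 0.0070), against 32.1% of all genes tested. The mean log2 ratio was at least 0.5 on both arrays for 16 of the 17, against 16.4% of all genes. Their median was 0.90, and that of all 592 genes tested was 0.04. Many of the 17 overlap each other and share probes.

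Left of sap1, cut15, which encodes an importin alpha of nuclear import, had 0.78 in replicate 1 and 0.82 in replicate 2 over 9 probes (0.80 ± 0.03, SD, n = 2). The next gene, rps1201 for the ribosomal protein eS12, had the highest mean of the 17, with 1.62 and 1.63 over 3 probes, a 3.08-fold ratio. Its paralog rps1202 lies on chromosome II, and whether the 2 genes share signal was not tested. With 3 probes this value is uncertain. The gene ast1, annotated as a member of the XP-G family of nucleases, had 1.19 and 1.13 over 7 probes. The lowest mean was that of bpb1, a splicing factor gene, with 0.45 and 0.46 over 6 probes. It was the 1 tested gene under 0.5 on both arrays. SPCC1672.01 (histidinol-phosphatase), which starts left of sap1 and ends right of it, is annotated with a last exon that spans sap1 on the other strand, so that its 19 probes, with 0.85 and 0.83, include the 8 of sap1. SPNCRNA.6909, which ends just left of sap1, had 1.55 and 1.45 over 3 probes.

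Right of sap1, the noncoding SPNCRNA.466 had 1.04 and 1.07 over 5 probes, a 2.08-fold ratio. The gene gud1 for guanine deaminase had 0.99 and 0.85 over 7 probes, which was the widest gap between the revertants among the 17 genes (0.14). The gene cox19, which encodes a copper chaperone for cytochrome c oxidase, had 1.17 ± 0.09 (SD, n = 2) over 4 probes. The tyrosyl-tRNA synthetase gene yrs1 had 0.87 and 0.93 over 6 probes. At the right edge, asp1, whose product makes inositol pyrophosphates, had 0.58 and 0.60 over 11 probes. The means of the genes on both sides thus ran above and below that of sap1, which was above 2 of the 10 protein-coding genes, bpb1 and asp1.

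**Figure D4:**
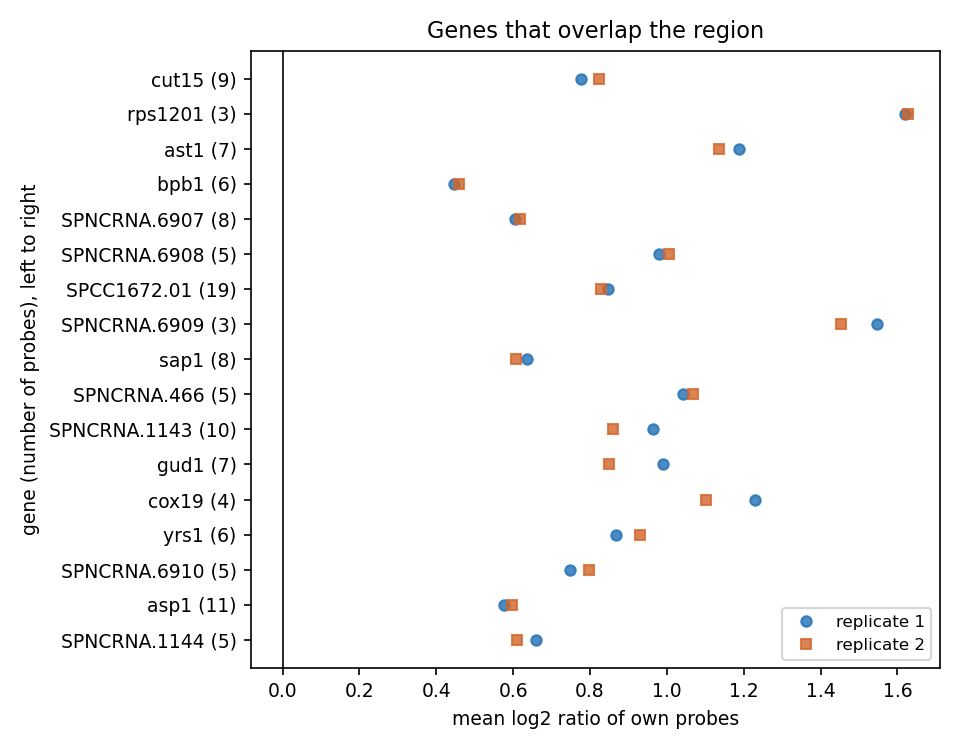
Mean log2 ratio of the own probes of the 17 tested genes that overlap the region (horizontal), in order of position from left to right of the chromosome (top to bottom), with the number of probes in brackets, replicate 1 as circles and replicate 2 as squares. All lie above 0 on both arrays, from 0.45 for bpb1 to 1.63 for rps1201, and sap1 lies at 0.64 and 0.61.

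The high ratios went on beyond both flanks to different distances. The next tile to the left (529385 to 551575) had 0.92 in replicate 1 and 0.84 in replicate 2, and the next to the right (573767 to 595957) had 0.93 and 0.90, close to the 0.93 and 1.00 of the tile of sap1. To the right, both arrays were still high in the second tile (0.87 and 0.87) and near 0 in the third (-0.02 and 0.02). To the left, both were high in the third tile (0.86 and 1.01), while in the fourth and the fifth replicate 1 had 0.10 and -0.0048 and replicate 2 had 1.05 and 0.94. The flanks of 10 kb thus lay inside the gained stretch of both revertants, with at least 2 whole gained tiles beyond them on each side.

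**Figure D5:**
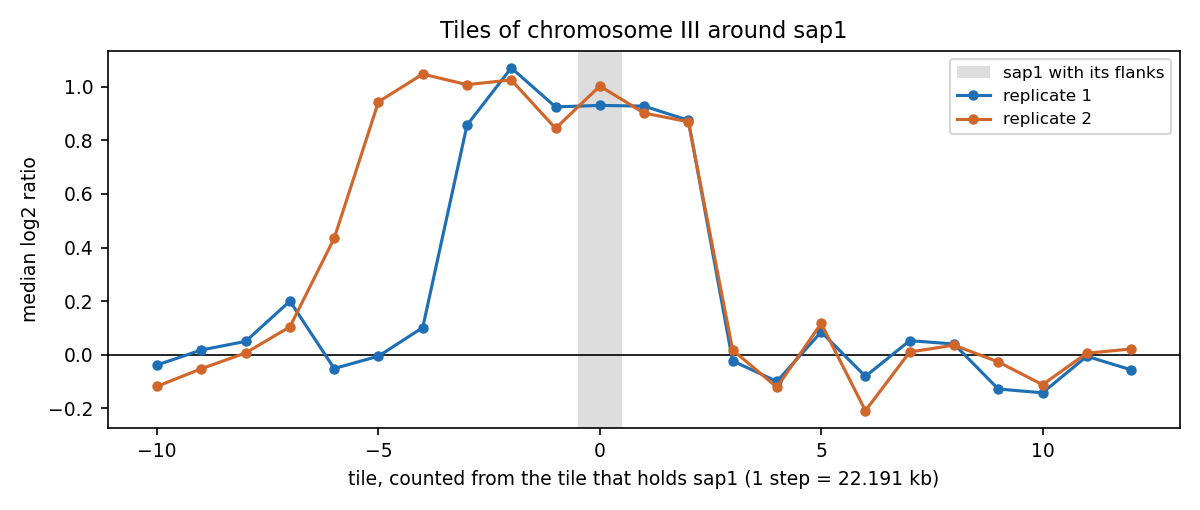
Median log2 ratio of tiles of 22.191 kb on chromosome III, counted in steps from the tile of sap1 (grey band), in replicate 1 and replicate 2. Both replicates lie between 0.84 and 1.07 from 2 tiles left of sap1 to 2 tiles right of it, both lie between -0.21 and 0.12 from the third tile on the right, and on the left replicate 2 stays high for further tiles than replicate 1.

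The 5 genes with values most like those of sap1 were sought outside the region but within the first 1 Mb of chromosome III. Genes elsewhere in the genome were not compared in this way, and tiles of 0.5 or more on both arrays also lay on chromosomes I and II. Likeness was the distance between the pair of values of a gene and that of sap1 on the 2 arrays, over the tested genes outside the region, so that it rests on 2 points. The nearest was wtf10 (0.60 and 0.62 over 7 probes, distance 0.03), a gene of the wtf family of meiotic drivers and their suppressors, followed by rrp5 (0.61 and 0.56 over 19 probes), which acts in ribosome assembly. Then came wtf5 (0.59 and 0.58 over 4 probes), sec15 of the exocyst (0.57 and 0.59 over 11 probes) and tfa2 of the transcription factor TFIIE (0.70 and 0.63 over 5 probes). Of these 5, wtf5 lay far to the left of sap1, at 243855 to 245622, and belongs to a family of similar sequences. The other 4 lay right of sap1, between 579220 and 617622.

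The other genes of fork barriers and fork protection had values between -0.11 and 0.14 on both arrays, apart from mus81. Probe positions may not match the annotation, and even within the first 1 Mb of chromosome III no single shift was resolved. Here a gene was therefore given the median of its probes and those up to 5 kb away. Over this neighbourhood sap1 had 0.96 and 1.00 (40 probes). Of the 18 other genes of the list, 0 were at 0.5 or more on both arrays, against 1.79% of all 12576 genes, so that this count is no result about the list. By limma 2 were higher and 0 lower, against 17.8% higher, 22.4% lower and 40.3% in either direction of all genes. Their median was 0.01, with a range from -0.08 for swi3 to 0.33 for mus81, and the median of all genes was -0.01. The 2 called were mus81, an endonuclease gene that replicate 2 alone gained (-0.21 and 0.86), and rad52 of recombination (0.14 and 0.13). These calls depended on the processing: with sap1 included, 3 were higher and 0 lower here, 7 and 3 after loess, 4 and 3 after normexp, and 4 and 6 in the authors' deposited series table.

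Of the 6 shelterin genes, which encode the complex that protects telomeres and which the title of the series names, 0 were higher and 2 were lower, near the 22.4% lower and 40.3% in either direction of all genes. These were poz1 (-0.38 and -0.43) and rap1 (-0.19 and -0.27), which link shelterin's DNA-binding ends. The median of the 6 was -0.08, and the highest was taz1 (0.08 and 0.10). From the authors' deposited series table, 4 of the 6 were lower and 1 was higher.

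All 74 probes of the region were well above background in both channels of both arrays, none was saturated and none was marked as an outlier. The median raw signals of the region were 9644 and 9815 in the wild-type channel and 5471 and 6241 in the revertant channel, against 8318 and 8348, and 2350 and 2577, over all probes. The number of arrays limits the precision over arrays, and the precision over probes rests on 8 probes of sap1 and 33 of each flank.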

How the data were processed

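Genomic DNA of 2 sap1-1 revertants (Cy5) was compared with wild-type DNA (Cy3) on 2 arrays of 1 slide, 1 per revertant, with no dye swap, so that dye effects of probes remain. Per the file headers, the authors quantified the scanner images with Agilent Feature Extraction 10.10.1.1, also named in the submitters' processing notes, and deposited processed intensities that were background-subtracted and scaled with a linear factor per channel. The deposited log10 ratio equalled log10 of red over green within 0.001 (0 exceptions). The authors' deposited series table gave log2 values equal to the uncentred mean over 5 neighbouring probes of these arrays, red over green (100% within 0.001), which settled its scale, centring and direction. Its column medians were -0.0030 and -0.01.

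The log2 ratio of the processed intensities was centred on each array's median over 41551 probes (0.09 and 0.08 before centring). Probes marked as outliers were left out (10 and 3 on the arrays), and saturated ones were kept. Tiles, genes, gene minus flanks, flanks, probes and gene neighbourhoods were fitted with limma 3.58.1 (R 4.3.3, mean of 2 arrays against 0). The p-values were adjusted by Benjamini-Hochberg over each whole table. The fit was run on simulated data as well. These held no probe or dye effects shared by the arrays, so that they cannot show how such effects bear on the calls. Other steps ran in Python 3.11.15. Alternatives were other flanks, filters, scalings and background corrections; normexp was run on median signals in place of the planned mean signals.

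For the probe positions, the build is not given in the sources used. Ratios fall with GC content, and over the first 1 Mb of chromosome III they correlated best with the GC content of ASM294v3 at a shift of 160 bp (r = -0.14). Around the region the best shift was 80 bp (r = -0.16), but r was -0.16 at 0 bp as well. A single shift against this assembly is thus not resolved. The last probe position of chromosome III (2453700) lies beyond the end of that assembly (2452883), so that the builds differ further right. Genes were named from the RefSeq annotation of ASM294v3. Named genes are those that overlap the region, the 5 most like sap1, and list members by their counts and extremes. The region, lists and tests were chosen with earlier results of these data known.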

Additional observations from a re-analysis of the deposited data

How the results depend on the processing

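Of 89 recomputed values, 75 kept their call or stayed near the reported value, 1 lost its call, 13 moved further and 0 changed sign. Part of this tally was fixed in advance. With 2 arrays, the value of either array alone always lies within 1 SD of their mean. No probe of the region was saturated, so that leaving out saturated probes could not change its values. Centring on chromosomes I and II could not change the differences within the region. Over the alternatives run, the region ran from 0.88 to 1.00, sap1 from 0.61 to 0.81 (mean) and from 0.59 to 0.88 (median), the left flank from 1.09 to 1.20 and the right flank from 0.75 to 0.91. Without replicate 1 or without replicate 2 the region was 1.00 or 0.93, sap1 0.61 or 0.64 (mean) and 0.86 or 0.74 (median), the left flank 1.09 or 1.20, the right flank 0.80 or 0.91, sap1 minus its flanks -0.31 or -0.28, the left minus the right flank 0.30 or 0.29, and 56 or 57 probes were at 0.5 or more. With 1 array limma cannot be fitted, so that calls were not counted. The difference of sap1 from its flanks was no longer called after normexp (-0.12, adjusted p 0.11, limma), and the cause was not tested. The ratio of summed signals, chosen after seeing the data, weights bright probes and gave 0.88 for the region, 0.59 for sap1, 0.75 for the right flank, -0.32 for sap1 minus its flanks and 0.37 for the left minus the right flank. After loess within each array the right flank fell to 0.76. At a size of 1 in place of 0.5, 32 probes of the region passed. The called fork genes (3 in the report's setting, sap1 among them) were 10 after loess (7 higher, 3 lower), 7 after normexp (4 and 3), 10 in the authors' deposited series table (4 and 6) and 5 without saturated probes (4 and 1). The called shelterin genes (2, both lower) were 5 in that table (1 higher, 4 lower) and 4 without saturated probes (1 and 3). These counts and directions depend on the processing. No paired analysis was possible because the study has 1 group. All 74 probes were well above background, and the number of arrays limits the errors over arrays, while those over probes rest on 8 probes of sap1 and 33 of each flank.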
